A study of Mus musculus with 24 samples.

Results

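Broad H3K4me3 promoter regions were defined as the peak regions of at least 4500 bp that overlap an annotated transcription start site (TSS) on chromosomes 1 to 19. Of the 17993 regions counted in the cerebral cortex of mice, 12931 overlapped a TSS on these chromosomes, and 687 of those met the width cut. The other 12244 are called narrower TSS regions here. A further 25 regions on these chromosomes were as wide but held no TSS, and 11 wide regions lay on other chromosomes, so that 723 regions reached the cut in all. The members were 4500 to 8561 bp wide, with a median of 5247 bp, and 157 of them reached 6000 bp. Each was named by the protein-coding gene whose TSS lay nearest to its centre, which applied to 672 members. The remaining members were named by 5 lincRNAs, 5 microRNAs, 3 processed transcripts and 2 pseudogenes. The widths come from peaks called on the H3K4me3 signal of this study, and how calls from separate libraries were merged into the region list is not given in the sources used here.

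H3K4me3 is the trimethylated form of lysine 4 on histone H3 and marks the promoters of genes that are active or poised for transcription. At most promoters it covers a short stretch around the TSS, whereas at a minority it spreads far into the gene. Such broad domains are known to gather at genes that define the identity of a cell type, including its transcription factors and, in neurons, genes for synaptic proteins and ion channels.

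The study expressed FLAG-tagged histone H2B in chosen cells of C57BL/6 mice, so that their chromatin could be purified with anti-FLAG antibody before H3K4me3 was precipitated, a procedure named tandem ChIP-Seq (tChIP-Seq). In single ChIP-Seq, H3K4me3 was precipitated directly from the chromatin of all cells. All animals carried the tagged H2B under the CAG promoter at the Rosa26 locus, as heterozygotes. In Rosa H2B-FLAG mice, labelled Rosa CAG-H2B-FLAG, the stop cassette had been removed by Vasa-Cre in an earlier generation, and nearly every cell carried the tag; age, sex and tamoxifen are not given for these mice beyond that they were adult. In Camk2a H2B-FLAG mice, labelled Rosa26 CAG-floxed-pA-H2B-FLAG/ CaMKCreERT2, males heterozygous for both alleles received 1 mg of tamoxifen a day for 5 days from 8 weeks of age and were killed a month later, which put the tag in Camk2a-positive neurons. The promoter that drives Cre in this line is thus that of a member of the regions studied, and reads from the transgene and from the endogenous Camk2a locus cannot be told apart. Each lysate held the cortex tissue of 2 animals, and 3 numbered replicates of each line gave 4 groups of 3 H3K4me3 libraries. In this bulk tissue, fewer cells of a type and less H3K4me3 per cell cannot be told apart. The p-values measure the spread between these replicates only.

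Libraries held between 1457261 and 8644574 counts in all, lowest in tChIP-Seq of Rosa H2B-FLAG mice and highest in single ChIP-Seq of the same line. Every member had at least 13 counts in every library, and all 687 therefore passed the filter of 10 counts per library that was tried as an alternative. Summed over the 12 libraries, the members had a median of 7782 counts and a lowest total of 1748. No member had a near-identical stretch elsewhere in mm9, searched as alignments of 500 bases or more at 95% identity. Values for single regions are CPM, the counts divided by the library total and scaled by the TMM factors of all 12 libraries.

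The sequence before the start site differed widely between the members that led the results. Shown are up to 250 bases upstream of an annotated TSS, on the strand of the gene and in mm9, for the widest pair of members and for leading members of the comparison of lines, Camk2a not included. A window stops where another annotated exon begins, and it may run past the edge of the region. Capitals mark CpG dinucleotides, the letters at which promoter DNA can be methylated. The windows are chr3:45182183-45182319 for Pcdh10, a protocadherin of cell adhesion, and chr5:22940009-22940258 for Mll5, a protein with a SET domain. Those of 2 members that were higher in tChIP-Seq of Camk2a H2B-FLAG mice are chr17:93598512-93598761 for Adcyap1, which encodes the neuropeptide PACAP, and chr9:74899534-74899783 for Arpp19, a phosphoprotein regulated by cyclic AMP. The window of Tbx3, a T-box transcription factor that was lower there, is chr5:120125312-120125453, and all of them lie on the plus strand.
Pcdh10: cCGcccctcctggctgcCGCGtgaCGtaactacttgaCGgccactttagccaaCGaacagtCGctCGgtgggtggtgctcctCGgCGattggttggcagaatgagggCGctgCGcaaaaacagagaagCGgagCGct
Mll5: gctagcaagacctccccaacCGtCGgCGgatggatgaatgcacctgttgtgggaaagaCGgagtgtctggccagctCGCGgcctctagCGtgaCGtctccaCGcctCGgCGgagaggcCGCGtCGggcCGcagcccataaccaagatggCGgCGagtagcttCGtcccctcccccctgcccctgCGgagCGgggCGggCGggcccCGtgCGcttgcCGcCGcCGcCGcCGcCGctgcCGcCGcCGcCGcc
Adcyap1: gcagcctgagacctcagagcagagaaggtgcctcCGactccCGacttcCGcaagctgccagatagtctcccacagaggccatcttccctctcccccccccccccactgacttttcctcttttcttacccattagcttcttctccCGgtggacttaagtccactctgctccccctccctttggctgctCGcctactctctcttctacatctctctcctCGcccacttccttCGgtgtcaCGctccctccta
Arpp19: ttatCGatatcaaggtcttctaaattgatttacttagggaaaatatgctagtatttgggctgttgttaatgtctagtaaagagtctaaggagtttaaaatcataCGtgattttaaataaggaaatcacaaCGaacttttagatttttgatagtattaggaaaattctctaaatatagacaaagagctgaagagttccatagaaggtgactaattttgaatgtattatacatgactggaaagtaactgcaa
Tbx3: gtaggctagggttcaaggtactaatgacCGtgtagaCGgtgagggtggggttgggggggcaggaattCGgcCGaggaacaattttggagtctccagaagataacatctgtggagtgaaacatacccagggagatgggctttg

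The Mll5 window held 34 CpG dinucleotides in 250 bases at a GC content of 73.6%, against 8 at 58.4% in the Adcyap1 window and 3 at 29.6% in the Arpp19 window. In the shorter windows, Pcdh10 had 14 CpG dinucleotides in 137 bases and Tbx3 had 4 in 142 bases. CpG-rich and CpG-poor promoters were thus both present among the wide regions. For Erg, the other leading member that was lower, fewer than 100 bases free of annotated exons preceded the TSS, and none are shown.

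Over whole regions, the members had a median of 36.6 CpG dinucleotides per kb, and the narrower TSS regions had 44.2. The GC content was 53.5% and 54.2%, respectively. The genes that named the members had a median length of 44101 bp, against 27120 bp for narrower regions. A median of 69.9% of a member lay on the transcribed side of its TSS, compared with 63.2% for narrower regions, and the annotated TSSs of a region spanned a median of 344 bp against 57 bp. Broad regions thus extended further into longer genes and held more scattered start sites, at a lower density of CpG dinucleotides; since they hold more sequence, the span of start sites is bound to width. TSSs of 2 or more genes lay in 25.2% of members and 16.7% of narrower regions, and 10.6% and 8.8% held protein-coding TSSs on both strands.

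In windows of 250 bases upstream of the naming TSS, 5 short motifs were counted on both strands. TATAAA, the core of the TATA box, was present at 5.97% of members and at 4.45% of all TSS regions. TGACGTCA, the full cyclic AMP response element, was present at 2.18% and 2.85%, and the palindrome bound by NRF1 at 0.728% and 1.48%. CCAAT was present at 27.7% and 30.9%, and GGGCGG, the core of the GC box, at 59.2% and 63.2%. Members thus held TATAAA somewhat more often and the other 4 less often than all TSS regions, and these shares were not tested. Each motif was counted on its own, whether or not it overlapped another. Of the windows printed above, those of Pcdh10 and Mll5 held GGGCGG and that of Pcdh10 held CCAAT.

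The question was first how much of the H3K4me3 signal fell in broad regions in each kind of ChIP-Seq and line. The members, which cover 10.7% of the summed width of all regions, took 11.82%, 11.89% and 11.86% of the counts in the single ChIP-Seq libraries of Rosa H2B-FLAG mice. In single ChIP-Seq of Camk2a H2B-FLAG mice they took 11.84%, 11.82% and 11.82%. In tChIP-Seq, the share was 10.16%, 10.21% and 10.18% in the Rosa line and 11.86%, 11.96% and 11.94% in the Camk2a line. The Rosa H2B-FLAG tChIP-Seq libraries stood below all others. The group means were 11.86% ± 0.0358 and 11.83% ± 0.00781 in single ChIP-Seq of the Rosa and Camk2a lines and 10.18% ± 0.0268 and 11.92% ± 0.0518 in tChIP-Seq (SD, n = 3 each). The lines differed by 1.74 percentage points in tChIP-Seq (exact permutation test, two-sided, p = 0.1, adjusted p = 0.125 over 5 tests) and by -0.03 in single ChIP-Seq (p = 0.2, adjusted p = 0.2, exact permutation test). A p of 0.1 is the smallest that 3 libraries against 3 allow. The difference between these 2 line effects was 1.77 percentage points, with a p of 0.01 and an adjusted p of 0.05 when line labels were permuted within each kind in 400 ways by an exact permutation test, whose smallest possible p is 0.005. That test treats the 12 libraries as separate units, although the 2 kinds carry the same numbers, taken here as lysates. With the 6 lysates as units, the exact permutation test gave p = 0.1 (adjusted p = 0.25), the smallest that 20 relabellings allow. Between the kinds, tChIP-Seq was lower by -1.68 percentage points in Rosa H2B-FLAG mice and higher by 0.1 in Camk2a H2B-FLAG mice, both with p = 0.1 and an adjusted p of 0.125 by the exact permutation test over libraries. Paired by lysate, both had p = 0.25, the smallest that the exact permutation test allows for 3 pairs.

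**Figure D1:**
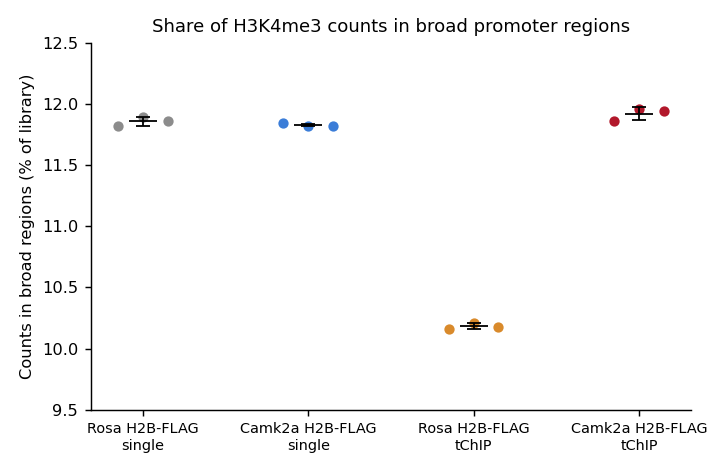
Each point is the percentage of a library's counts that fell in the 687 broad regions, with the mean and SD of 3 libraries per group; the vertical axis does not start at 0. The 3 Rosa H2B-FLAG tChIP-Seq libraries lie between 10.16% and 10.21%, below the other 9, which lie between 11.82% and 11.96%.

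Per kb of sequence, the level of H3K4me3 in a typical member was near that of a narrower TSS region. In single ChIP-Seq, the median member had 30.8 to 31.7 CPM per kb over the 6 libraries, and the median narrower region had 29.4 to 29.8. In tChIP-Seq, the median member had 25.3 to 25.8 CPM per kb in the Rosa line and 32.9 to 33.3 in the Camk2a line, while narrower regions had 28.4 to 28.5 and 29.2 to 29.4. Between members, the mean level in single ChIP-Seq of Rosa H2B-FLAG mice ranged from 5.34 CPM per kb at Sfi1, which encodes a centrin-binding protein of the spindle, to 81.4 at a region that holds the TSSs of Gm20417 and Malat1, a nuclear long noncoding RNA. Arid1a, a subunit of the SWI/SNF remodelling complex, had 80.8 CPM per kb and Smad7, an inhibitor of TGF-beta signalling, had 78.6. At the low end, Adcyap1 had 8.53 and Erg, an ETS factor of endothelial cells, had 8.64. Width therefore did not fix the level, since members of similar width stood at both ends.

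In tChIP-Seq, the comparison of Camk2a H2B-FLAG with Rosa H2B-FLAG mice sets tagged chromatin of Camk2a-positive neurons against that of nearly all cortex cells. Rosa H2B-FLAG tChIP-Seq does not stand for whole cortex, since 495 members (72.1%) were lower in it than in single ChIP-Seq. A higher call is therefore relative to Rosa H2B-FLAG tChIP-Seq and need not mean more H3K4me3 than in whole cortex. Of the 687 members, 374 (54.4%) were higher and 105 (15.3%) lower in the Camk2a line at an adjusted p under 0.01. Over all regions, 17.0% were called higher and 14.6% were called lower. The share called higher was thus above the background, and the share called lower was near it. Since widths come from the H3K4me3 signal of the same study, a region may have reached the cut through the group where it was high. The excess of higher calls therefore describes the members and is no independent test. The median log2 fold change of the members was 0.25, with quartiles of -0.03 and 0.79, against -0.02 for narrower TSS regions and 0.00 over all regions. Members with a difference of at least 1 on the log2 scale numbered 120 upwards and 39 downwards. Together they were 159 of 687 members, against 2585 of all 17993 regions.

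Wider regions hold more counts, and counts set how small a difference can be called. Among TSS regions under 1000 bp, 6.58% were called higher, compared with 44.4% from 4000 to 4500 bp and 65.6% at 6000 bp or more, while the median count rose from 303 to 6240 and 9580. The share called lower moved between 25.2% and 12.0% without such a rise. The median log2 fold change also shifted along the widths, from -0.26 under 1000 bp to 0.15 and 0.41, which does not depend on the threshold. Narrower TSS regions with at least 6236 counts, the lower quartile of the members, numbered 937, and 18.5% of them were higher and 6.51% lower, with a median of 0.02. Of the 25 broad regions without a TSS, 10 were higher and 3 were lower.

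**Figure D2:**
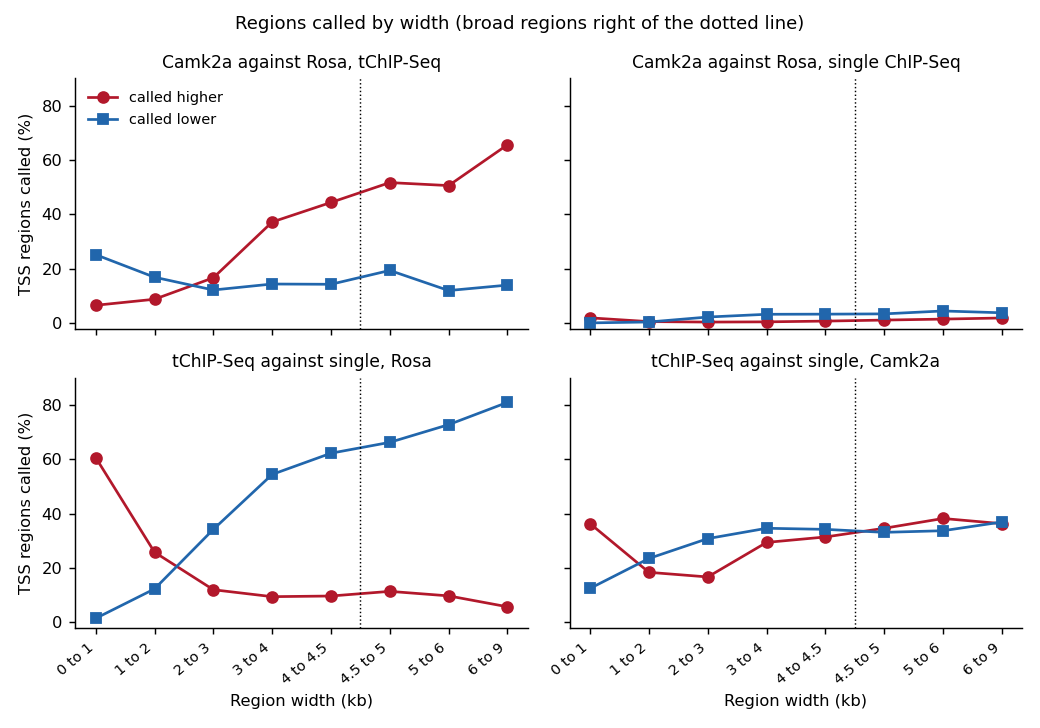
Percentage of TSS regions on chromosomes 1 to 19 called higher (circles) or lower (squares) at an adjusted p under 0.01, by region width in kb, in 4 comparisons; members lie right of the dotted line. In tChIP-Seq the share higher in Camk2a H2B-FLAG mice climbs from 6.58% to 65.6%, and in Rosa H2B-FLAG mice the share with less signal in tChIP-Seq climbs from 1.47% to 80.9%.

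The largest increase in Camk2a H2B-FLAG tChIP-Seq was at Camk2a, followed by Adcyap1 and Arpp19. Camk2a itself, a kinase of excitatory synapses and the gene whose promoter drives Cre, had 323, 346 and 348 CPM in Camk2a H2B-FLAG mice against 74.1, 69.8 and 66.3 CPM in Rosa H2B-FLAG mice (log2 fold change 2.27, SE 0.0685, adjusted p = 9.42e-44). Adcyap1 had 129, 121 and 147 CPM against 41.7, 29.8 and 32.8 CPM (1.91, SE 0.105, adjusted p = 1.78e-27). Arpp19 had 82.3, 97.1 and 103 CPM against 27.7, 25.0 and 25.6 CPM (1.84, SE 0.121, adjusted p = 2.96e-23). In all 3, every Camk2a H2B-FLAG library lay above every Rosa H2B-FLAG library. Npas4, an activity-induced transcription factor of neurons, had 207, 184 and 193 CPM against 60.0, 59.0 and 64.3 CPM, a log2 fold change of 1.68 (SE 0.0805). Cck, the neuropeptide cholecystokinin, had 163, 173 and 173 CPM against 51.1, 56.1 and 53.8 CPM, with 1.67 (SE 0.0844). Both gene products are made by neurons, and the libraries of the lines did not overlap. Gpr26, an orphan receptor, rose by 1.70, Nedd4l, a ubiquitin ligase, by 1.69, Adra1d, an adrenergic receptor, by 1.60, Kalrn, an exchange factor of dendritic spines, by 1.59 and Srrm4, a neural splicing factor, by 1.58, with adjusted p values of 5.53e-28 or lower.

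The largest decreases were at Tbx3, Erg and Olig2. Tbx3 had 13.5, 10.8 and 10.7 CPM in Camk2a H2B-FLAG tChIP-Seq against 86.1, 78.7 and 89.9 CPM in Rosa H2B-FLAG mice (log2 fold change -2.84, SE 0.138, adjusted p = 1.98e-30). Its region lies mostly upstream of the naming TSS, with 9.91% of its bases on the transcribed side. Erg had 4.26, 8.66 and 7.74 CPM against 46.4, 47.1 and 44.0 CPM (-2.74, SE 0.188, adjusted p = 3.4e-22). Olig2, the transcription factor of the oligodendrocyte lineage, had 14.1, 10.8 and 14.7 CPM against 77.2, 65.0 and 81.4 CPM (-2.48, SE 0.142, adjusted p = 1.83e-26). Gja1, the gap junction protein connexin 43 of astrocytes, had 18.7, 21.3 and 18.4 CPM against 91.3, 94.8 and 102 CPM (-2.29, SE 0.119, adjusted p = 7.88e-29). Each of these 4 was low in all 3 Camk2a H2B-FLAG libraries and high in all 3 Rosa H2B-FLAG libraries. The other leading decreases were at Gata2, a transcription factor known from blood and vessels (-2.32), Zic5 (-2.28) and Zic1 (-2.21), zinc finger factors of development, Neat1, the RNA that scaffolds paraspeckles (-2.28), S1pr1, a receptor for sphingosine 1-phosphate (-2.27), and Sall1, a zinc finger factor (-2.19).

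**Figure D3:**
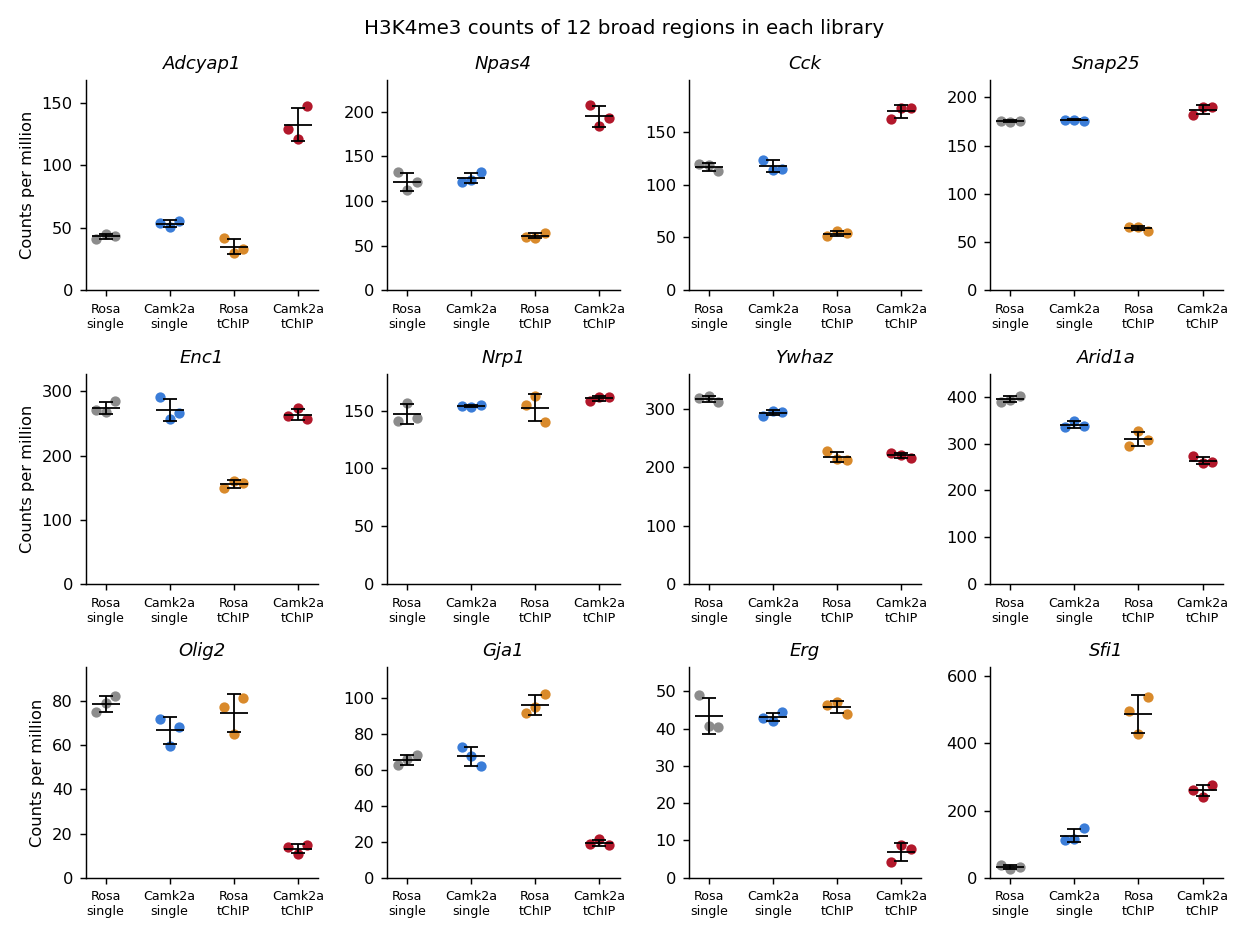
CPM of 12 broad regions in each of the 12 libraries (points, axes from 0), with the mean and SD of 3 libraries per group. Adcyap1, Npas4, Cck and Snap25 are lowest in Rosa H2B-FLAG tChIP-Seq, Olig2, Gja1 and Erg are lowest in Camk2a H2B-FLAG tChIP-Seq, and Nrp1 stays between 140 and 163 throughout.

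Lists of genes for cell types and functions were used to group the members, and a region was assigned to a list when it held the TSS of a list gene. Of 11 members at excitatory neuron genes, 8 were higher and 0 lower in Camk2a H2B-FLAG tChIP-Seq, with a median log2 fold change of 1.28. They include the transcription factors Neurod2 (1.37), Neurod6 (1.33), Emx1 (1.28), Bcl11b (1.02) and Fezf2 (0.92) and Nrgn, a calmodulin-binding protein of the postsynapse (1.35). Camk2a (2.27), where reads of the transgene and the locus cannot be told apart, is also among the 8. The members that were not called are Tle4 (-0.16), Rorb (-0.16) and Cux1 (-0.10). All 17 members at synaptic and adhesion genes were higher (median 0.98), from Ntrk2, the receptor of the growth factor BDNF, at 0.47 to Snap25, a fusion protein of synaptic vesicles, at 1.54. All 15 members at ion channel and receptor genes were higher as well (median 1.09), from Adcyap1r1, the receptor of PACAP, at 0.27 to Adra1d at 1.60. Among them, the glutamate receptor subunits Grin2a, Gria1, Grik3 and Gria2 differed by 1.58, 1.30, 1.01 and 0.65, and the muscarinic receptor Chrm1 by 1.52. For comparison, 17.0% of all regions were called higher in this contrast. Narrower TSS regions of the same lists behaved alike. Higher were 6 of 8 at excitatory neuron genes, 31 of 37 at synaptic genes and 20 of 24 at channel and receptor genes. Their medians were 0.76, 0.85 and 0.88, and 0, 0 and 3 were lower. The increases were thus not particular to broad regions.

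Members at glial and vascular genes mostly had the opposite sign. Over all regions 14.6% were called lower, and over all members 15.3%. All 6 members at vascular genes were lower (median -1.84), among them Erg (-2.74), Flt1, a receptor for VEGF (-1.94), and Foxf2, a factor of pericytes (-1.74). Of 4 at oligodendrocyte genes, 3 were lower, namely Olig2 (-2.48) and the myelin genes Cnp (-1.34) and Mbp (-1.34), whereas Sox8 had 0.14 and was not called. Of 6 at astrocyte genes, 4 were lower, with Gja1 (-2.29) and the glutamate transporter Slc1a3 (-1.60) leading. Slc1a2, the other glutamate transporter on the list, was higher by 0.38, and the region shared by Pank4 and Hes5 was not called (0.14). Single members stood for the lists of microglia (Sall1, -2.19) and interneurons (the transcription factor Maf, -0.45), and both were lower. Narrower TSS regions of these lists were also lower, at 13 of 13 vascular, 8 of 11 oligodendrocyte and 7 of 14 astrocyte regions. So were 3 of 5 microglial and 11 of 15 interneuron regions, while 1 oligodendrocyte and 3 astrocyte regions were higher. The decreases were thus not particular to broad regions.

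Levels summed over all TSS regions of each list, broad or not, moved in the same directions. In Camk2a H2B-FLAG tChIP-Seq the 19 regions of excitatory neuron genes summed to 2560 to 2730 CPM over the 3 libraries, against 1410 to 1490 CPM for the Rosa line. The 19 vascular regions had 454 to 467 CPM against 1180 to 1210 CPM, the 15 oligodendrocyte regions 510 to 538 CPM against 726 to 764 CPM, and the 20 astrocyte regions 1460 to 1480 CPM against 1880 to 1960 CPM. The 16 interneuron regions had 440 to 466 CPM against 725 to 742 CPM, and the 6 microglial regions 189 to 206 CPM against 373 to 376 CPM. No list was at 0 in any library. In single ChIP-Seq the excitatory neuron regions had 2200 to 2260 CPM in Camk2a H2B-FLAG mice and 2170 to 2190 CPM in Rosa H2B-FLAG mice. The vascular regions had 881 to 931 CPM and 904 to 944 CPM, respectively. Camk2a, one of the excitatory neuron regions, had means of 250 CPM in Camk2a H2B-FLAG and 174 CPM in Rosa H2B-FLAG single ChIP-Seq. In tChIP-Seq its means were 339 and 70.0 CPM, and sums without it were not calculated. The part of cell composition in the differences of single members was not tested.

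Broad regions at activity-regulated, axon guidance and signalling, and patterning genes had calls of both signs, and those at microRNA genes did not. For comparison, 54.4% of all members were higher and 15.3% lower, with a median of 0.25, against 17.0% and 14.6% of all regions. Of 14 members at activity-regulated genes, 7 were higher and 1 was lower (median 0.21), a share higher that is near that of all members. Npas4 (1.68), Arc, a regulator of synaptic receptors (0.83), and the nuclear receptor Nr4a1 (0.64) were higher, Dusp1, a phosphatase of MAP kinases, was lower (-0.40), and Fos (0.02), Jun (-0.05) and Junb (0.11) were not called. Of 12 members at axon guidance and signalling genes, 6 were higher and 2 were lower. The ephrin Efna5 (0.58) and the semaphorin receptor Plxna4 (0.53) were higher, while Sema6d, a semaphorin (-0.55), and Fzd8, a receptor for Wnt proteins (-0.46), were lower. Of 6 members at homeobox and other patterning genes, 2 were higher, among them Tshz3 (0.32), and 3 were lower, among them Nr2f2, an orphan nuclear receptor (-0.90). All 4 members at microRNA genes were higher, namely Mir137 (1.42), Mir129-2 (1.24), Mir124a-3 (0.98) and the region of Mir124a-1 (0.87). Of the 3 narrower TSS regions of this list, 0 were higher and 1 was lower (median -0.19). Only 8 of the 21 genes on the microRNA list had a TSS in a region. miR-124 and miR-137 are known as microRNAs of neurons.

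Of 9 members at 7 genes of chromatin and general regulators, 2 were higher and 1 was lower (median 0.08). Over all members, 54.4% were higher and 15.3% lower, and over all regions 17.0% and 14.6%. The higher ones were Nfix (0.88) and 1 of the 3 Tcf4 regions (0.77). Arid1a was lower (-0.22), and Mll2, a methyltransferase for H3K4, and Arid1b had 0.09 each and were not called. Of the 2 members at ubiquitous genes, Actb, cytoplasmic actin, was lower (-0.30), a call that was lost when replicate 1 of the Rosa line was left out (-0.27, adjusted p = 0.0129) or replicate 3 (-0.27, adjusted p = 0.0111), and Ywhaz, a 14-3-3 protein, had 0.02 and was not called. The lists did not reach every gene: of 371 entries, 70 annotated genes had no TSS in a region and were not analysed here. Among these are Sox10, whose TSS lies 3 bp from a region of 4884 bp, and Kdm6b, whose TSS lies 1210 bp from a region of 4530 bp.

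**Figure D4:**
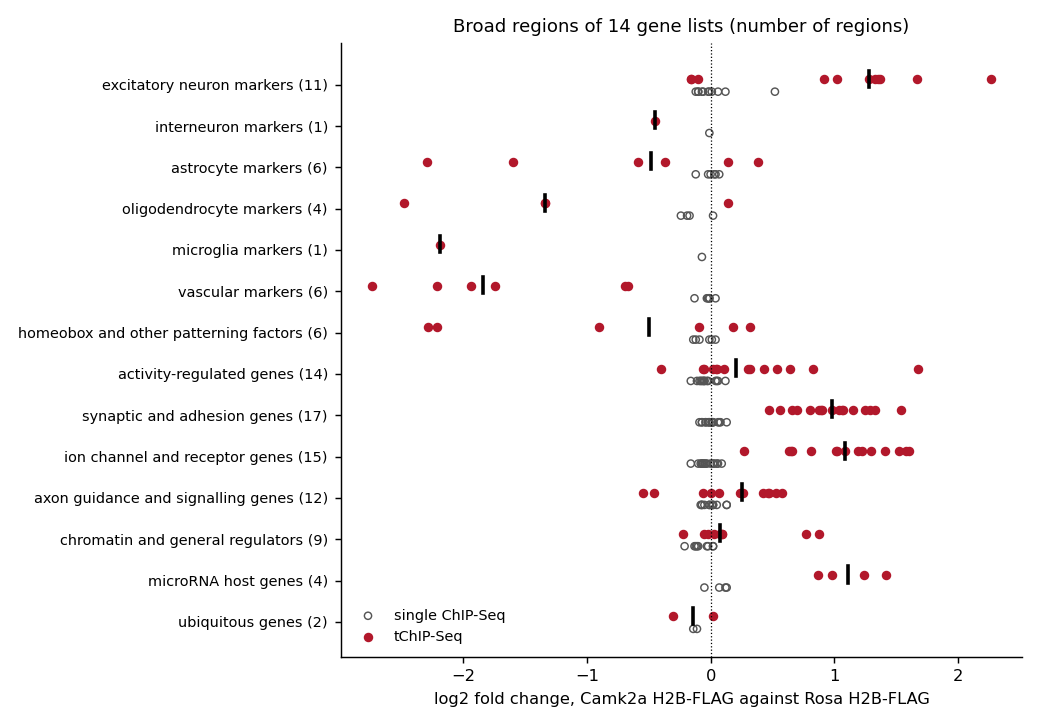
Log2 fold change of Camk2a H2B-FLAG against Rosa H2B-FLAG mice for the members of 14 gene lists, in tChIP-Seq (filled circles, with the list median as a bar) and single ChIP-Seq (open circles); the number of members is in parentheses and a member may be on more than 1 list. In tChIP-Seq all 17 synaptic and all 15 channel and receptor members lie above 0 and all 6 vascular members below it, whereas in single ChIP-Seq the points lie between -0.24 (Olig2) and 0.52 (Camk2a).

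In single ChIP-Seq, in which chromatin was not selected by the tag, the same lines were compared. The Camk2a line was higher at 10 members (1.46%) and lower at 27 (3.93%), against 0.928% and 1.22% of all regions. The median log2 fold change was -0.03, and only 1 member, Sfi1, differed by 1 or more. Over all 17993 regions, 163 differed by as much. Sfi1 had 112, 115 and 147 CPM in Camk2a H2B-FLAG mice against 38.7, 26.6 and 31.9 CPM in Rosa H2B-FLAG mice (log2 fold change 1.95, SE 0.0712, adjusted p = 5.05e-67). Camk2a had 262, 249 and 238 CPM against 175, 171 and 175 CPM (0.52, SE 0.0384, adjusted p = 3.74e-27). Adcyap1 had 53.9, 50.3 and 55.6 CPM against 40.7, 45.0 and 43.4 CPM (0.30, SE 0.0774, adjusted p = 0.00762). At these 3 regions the libraries of the lines did not overlap. Pde4d, a cyclic AMP phosphodiesterase (0.26, adjusted p = 0.00519), Arpp19 (0.23, adjusted p = 0.00336) and Setd5 (0.14, adjusted p = 0.00363) were also higher. The Setd5 region holds the TSS of Gt(ROSA)26Sor, the locus into which the tagged H2B was inserted in both lines.

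The decreases in single ChIP-Seq were small. Those named by rank were Olig2 (-0.24, adjusted p = 0.00932), Arid1a (-0.21, adjusted p = 6.3e-08), Cnp (-0.19, adjusted p = 0.00877) and Dusp8, a phosphatase of MAP kinases (-0.18, adjusted p = 0.00132), the last among several members at -0.18. Arid1a had 335, 349 and 339 CPM in Camk2a H2B-FLAG mice and 390, 393 and 402 CPM in Rosa H2B-FLAG mice. The libraries did not overlap, although the difference was small beside those in tChIP-Seq. With the Wald test of DESeq2, 1 member was higher and 3 were lower, but its independent filtering left 57 members without an adjusted p, Sfi1, Adcyap1, Pde4d and Olig2 among them. Without that filtering, chosen after seeing the data, 2 were higher and 2 were lower, and Sfi1, Camk2a and Arid1a kept their calls, whereas Adcyap1 (adjusted p = 0.197), Pde4d (0.176), Olig2 (0.25), Cnp (0.245) and Dusp8 (0.0901) did not. With counts thinned to the totals of tChIP-Seq, 2 members were higher and 1 was lower, and the difference at Adcyap1 was 0.07 (adjusted p = 0.874). With any 1 library removed, 2 to 7 members were higher and 7 to 23 lower, with the fewest lower without replicate 3 of Rosa H2B-FLAG mice. The call at Adcyap1 was lost whichever of the 6 libraries was removed (adjusted p = 0.0112 to 0.055), and those at Pde4d, Olig2, Cnp and Dusp8 were each lost without at least 1 of them, while Sfi1, Camk2a and Arid1a kept theirs.

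The comparison of tChIP-Seq with single ChIP-Seq within Rosa H2B-FLAG mice asks whether purification by the tag itself changes the H3K4me3 profile, since nearly all cells carry it. Here 495 members (72.1%) were lower and 65 (9.46%) were higher in tChIP-Seq, against 22.5% and 24.7% of all regions, respectively. The median log2 fold change of the members was -0.35. Of narrower TSS regions with at least 6236 counts, 73.2% were lower and 1.07% were higher, with a median of -0.28. A share called lower of this size was thus also found in narrower regions of high count.

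The largest decrease in Rosa H2B-FLAG tChIP-Seq was at Arpp19. Arpp19 had 27.7, 25.0 and 25.6 CPM in tChIP-Seq against 85.6, 84.5 and 82.9 CPM in single ChIP-Seq (log2 fold change -1.68, SE 0.111, adjusted p = 1.01e-48). Snap25 had 65.7, 65.6 and 61.7 CPM against 176, 174 and 176 CPM (-1.43, SE 0.0735, adjusted p = 1.08e-80). Arpp21, a phosphoprotein regulated by cyclic AMP, fell by 1.39 and Kalrn by 1.35. All 17 synaptic members, 12 of 15 channel and receptor members and 9 of 11 excitatory neuron members were lower, with medians of -0.71, -0.67 and -0.76. These counts stand beside 72.1% lower among all members, with a median of -0.35, and 22.5% lower among all regions. Of 6 vascular members, 4 were higher and 0 were lower (median 0.30), and of 6 astrocyte members 3 were higher and 1 was lower.

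Of the members that rose, Sfi1 had 495, 428 and 539 CPM in tChIP-Seq against 38.7, 26.6 and 31.9 CPM in single ChIP-Seq (3.93, SE 0.0565), and its adjusted p was too small for the program to represent. The level of Sfi1 in single ChIP-Seq of Rosa H2B-FLAG mice was the lowest of all members, at 5.34 CPM per kb. Whether this region reached the width cut only through tChIP-Seq was not tested, and input and FLAG libraries were not examined for it. No other member rose by 1 or more. Tgif1, a homeodomain repressor, had 162, 166 and 182 CPM against 89.7, 86.5 and 92.6 CPM (0.93, SE 0.063, adjusted p = 4.56e-47). Smad6, an inhibitor of BMP signalling, and Prdm16, a factor with a SET domain, rose by 0.84 and 0.83. All 3 were lower in Camk2a H2B-FLAG than in Rosa H2B-FLAG mice in tChIP-Seq, by -1.02, -1.86 and -1.21, a contrast that shares the Rosa H2B-FLAG tChIP-Seq libraries. The same libraries enter the tChIP-Seq comparison of lines for every member, so that a low value in them gives a decrease here and an increase there.

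Within Camk2a H2B-FLAG mice, tChIP-Seq was above single ChIP-Seq at 250 members (36.4%) and below it at 235 (34.2%), against 25.3% and 22.6% of all regions. The median log2 fold change was 0.01. This comparison sets Camk2a-positive neurons against the whole cortex of the same line, together with any effect of the purification, and these cannot be told apart in it. Adcyap1 rose most, from 53.9, 50.3 and 55.6 CPM in single ChIP-Seq to 129, 121 and 147 CPM in tChIP-Seq (1.31, SE 0.0723, adjusted p = 5.74e-42). It was followed by Sfi1 (1.06), Adra1d (0.94) and Synpo, an actin-binding protein of spines (0.93). Snap25, in contrast, had 177, 177 and 176 CPM in single ChIP-Seq and 182, 190 and 190 CPM in tChIP-Seq, and its difference of 0.08 was not called. Of the synaptic members, 11 of 17 were higher and 0 were lower (median 0.28), and of the channel and receptor members 13 of 15 were higher (median 0.45).

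In Camk2a H2B-FLAG mice, 29 members fell by 1 or more on the log2 scale and 2 rose by as much. Differences of this size in either direction were found at 31 of 687 members and at 2124 of all 17993 regions. The log2 fold change was -2.66 at Erg, -2.52 at Tbx3, -2.43 at Sox2ot, a long noncoding RNA that overlaps Sox2, and -2.33 at Olig2. Olig2 had 71.9, 59.9 and 68.5 CPM in single ChIP-Seq and 14.1, 10.8 and 14.7 CPM in tChIP-Seq. All 6 vascular members were lower (median -1.49), as were all 4 oligodendrocyte members (median -1.81), Sox8 with -0.21 being the least. Mbp fell by 2.14. Mbp and Sox2ot were also lower in Rosa H2B-FLAG tChIP-Seq, by -0.95 and -0.51.

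The interaction over all 12 libraries tests whether the lines differ by the same amount in both kinds of ChIP-Seq. In this test 374 members (54.4%) had a more positive difference and 78 (11.4%) a more negative one, against 13.7% and 13.2% of all regions. The median over the members was 0.29. The most positive were Camk2a (1.74, SE 0.0823), Cck (1.67, SE 0.1), Adra1d (1.63, SE 0.101) and Grin2a (1.63, SE 0.082). The most negative were Sfi1 (-2.86, SE 0.0861), Erg (-2.74, SE 0.208), Tbx3 (-2.72, SE 0.158) and Gja1 (-2.34, SE 0.139). Except at Sfi1 and Camk2a, the single ChIP-Seq libraries of the lines differed little at these regions, by -0.13 at Tbx3 and by 0.05 or less in size at the others. Sfi1 was called in both kinds with opposite signs, being higher in Camk2a H2B-FLAG mice by 1.95 in single ChIP-Seq and lower by -0.90 in tChIP-Seq.

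Among the widest members the line effect ranged from clear increases to decreases. Pcdh10, the widest at 8561 bp (chr3:45179881-45188441), had 343, 367 and 369 CPM in tChIP-Seq of the Camk2a line, above the 280, 292 and 277 CPM of the Rosa line (0.35, SE 0.0482, adjusted p = 2.23e-09). Mll5, at 8387 bp (chr5:22936379-22944765), had 227, 237 and 220 CPM against 244, 263 and 255 CPM (-0.15, adjusted p = 0.0233) and was not called. The widest members thus included one that was higher and one that did not pass the test. Enc1, an actin-binding protein of neurons, Flrt2, an adhesion protein of axon guidance, and Adrb1, an adrenergic receptor, were higher by 0.77, 0.70 and 0.57. Zfp608, a zinc finger protein, was lower (-0.25), and neither Bhlhe40, a repressor of the circadian clock (-0.12), nor the region of Gm7854 and Cpeb2 (0.13) was called.

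At the threshold itself, the narrowest members were Fnbp1 (4500 bp), Gja1 (4502 bp) and Pde2a (4503 bp), with tChIP-Seq line differences of -0.38, -2.29 and 0.46. The widest TSS regions just below it were Npr3 (4495 bp) and Cdk2ap1 (4494 bp), with 0.55 and -0.09. The member that moved least over all comparisons was Nrp1, a receptor for semaphorins and VEGF, whose 12 libraries lay between 140 and 163 CPM and whose largest difference was 0.07.

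For 8 genes, separate broad regions covered different start sites. Tcf4, a transcription factor of the bHLH family, had 3, of 8000, 6470 and 5463 bp. The region of 6470 bp was higher in Camk2a H2B-FLAG tChIP-Seq by 0.77 (adjusted p = 4.76e-16), while the others had -0.05 and -0.02 and were not called. Arhgef2, an exchange factor for small GTPases, showed a similar split, with -0.11 at one region (not called) and 0.96 at the other (adjusted p = 7.76e-16). Start sites of one gene thus gave different values, although differences between regions of a gene were not tested. Both regions of Arpp21 (1.52 and 1.38), of Olfm1, a secreted glycoprotein of neurons (0.94 and 1.07), of Bai1, an adhesion receptor (0.65 and 1.00), and of Synpo (1.18 and 0.76) were higher. Auts2 was higher at 1 region (0.41) and not called at the other (0.18), and neither region of Tsc22d1 was called (0.16 and -0.04).

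Among the members themselves, the line effect varied with CpG density. Of the 229 members with the fewest CpG dinucleotides, 6.10 to 31.2 per kb, 162 were higher and 28 lower in Camk2a H2B-FLAG tChIP-Seq (median 0.64). In the middle group, 31.3 to 43.1 per kb, 121 were higher and 35 lower (median 0.24), and in the CpG-rich group, 43.2 to 85.0 per kb, 91 were higher and 42 lower (median 0.08). The median fell from group to group. Spearman's rho between CpG density and log2 fold change over the 687 members was -0.35 in tChIP-Seq, while it was -0.48 in single ChIP-Seq, where the group medians ranged only from 0.02 to -0.07. Regions of a library share its depth and base composition, so these are descriptions, and no p was calculated.

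**Figure D5:**
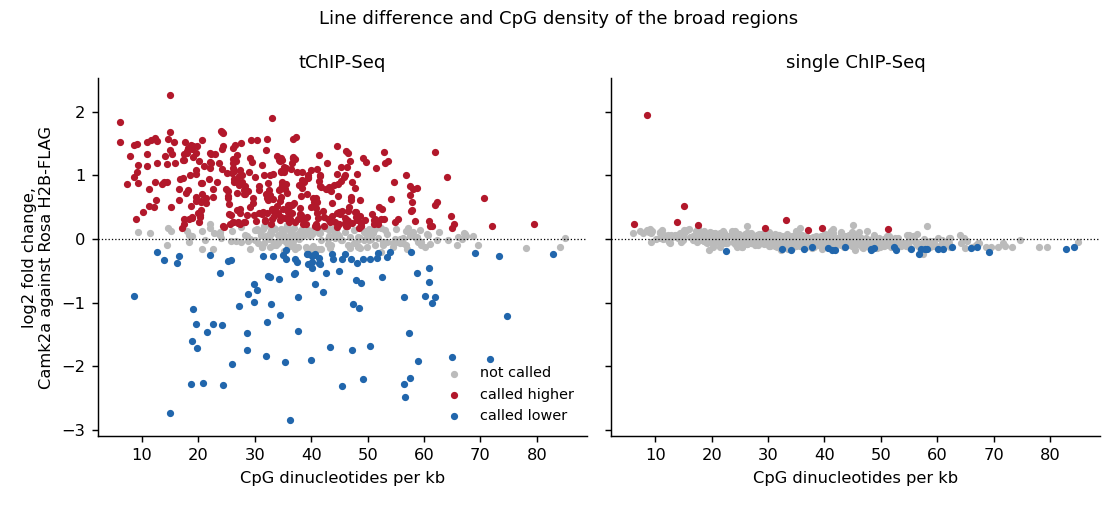
Each point is a broad region, with its CpG dinucleotides per kb on the horizontal axis and the log2 fold change of Camk2a H2B-FLAG against Rosa H2B-FLAG mice on the vertical axis, in tChIP-Seq (left) and single ChIP-Seq (right). In tChIP-Seq the median falls from 0.64 in the CpG-poorest group of 229 members to 0.08 in the CpG-richest, and in single ChIP-Seq the point at 1.95 is Sfi1.

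Gene length varied with the line effect in the opposite sense. Of the 229 members at the longest genes, 101206 bp or more, 163 were higher and 16 lower in Camk2a H2B-FLAG tChIP-Seq (median 0.46). At the shortest genes, up to 16816 bp, 104 were higher and 56 were lower (median 0.14). Spearman's rho was 0.25 for gene length and 0.09 for width. Within the Rosa H2B-FLAG line, tChIP-Seq was below single ChIP-Seq at 195 of the members at the longest genes, and rho was -0.26, from a contrast that shares the Rosa H2B-FLAG tChIP-Seq libraries.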

How the data were processed

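H3K4me3 was measured in 12 of the 24 libraries, and the input and FLAG libraries were not analysed here. The authors trimmed the reads, dropped those matching repeats (Bowtie2), aligned the rest to mm9 (Bowtie), discarded duplicates (samtools), took peaks that MACS found reproducibly and deposited counts of reads per region, whole numbers without normalization. Submitters' processing notes name Bowtie 1.0.0, Bowtie2 2.1.0, SAMtools 0.1.19 and bedtools 2.17.0. Removing repeats and duplicates can lower counts at repetitive or strong regions.

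TSSs were 5′ ends of GENCODE M1 transcripts on mm9. Counts of all regions were tested in edgeR 4.0.16 (TMM, quasi-likelihood test, Benjamini-Hochberg adjustment over 17993 regions, no count filter), each comparison on its own 6 libraries and the interaction on 12. The threshold for a call was an adjusted p under 0.01. SEs equal the size of the log2 fold change over the root of F. Shares were tested by exact permutation over libraries. Scripts were tested on simulated data, and near-identical copies were searched with minimap2 2.31-r1302. Titles give both kinds of library of a line the same numbers, taken as lysates where lysates are the unit. The sources used here do not state that same-numbered libraries share a lysate, and these hardly deviated together (correlation at most 0.0547). The main edgeR tests did not pair them.

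Named were the 8 widest and 3 narrowest members, 3 regions below the cut, the 10 largest called differences in each direction in tChIP-Seq between lines without overlap (4 in other comparisons), up to 3 members per list, the highest and lowest levels and the least changed member. Setd5, Slc1a2, Tle4, Rorb, Cux1, other list members given for contrast and genes with several regions were named after their values were seen. Members and lists were chosen with earlier results of these data known. Alternatives were DESeq2 1.42.0 (size factors and Wald test), other TMM factors, a count minimum of 10, a threshold of 0.05, widths of 4000 and 5000 bp, protein-coding TSSs, thinning, a replicate block, DESeq2 without independent filtering and lysates as units (both added after seeing the data), 1 fit of 12 libraries and leaving out each library.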

Additional observations from a re-analysis of the deposited data

Results flagged for a closer look

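The difference between lines was not the same in both kinds of ChIP-Seq by the interaction test of edgeR (adjusted p under 0.01). It was more positive in the tandem procedure at 374 of the 687 members and more negative at 78. For the share of counts in members, the line effect was larger in tChIP-Seq by 1.77 percentage points. The exact permutation test gave p = 0.01 (adjusted p = 0.05) over libraries and p = 0.1 (adjusted p = 0.25) over lysates, the latter being the smallest it allows.

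Of the single members, the effects differed between kinds by 1.74 at Camk2a (adjusted p = 1.33e-56), 1.67 at Cck (6.95e-41), 1.63 at Adra1d (3.91e-39) and 1.63 at Grin2a (5.52e-52). They differed by -2.86 at Sfi1 (1.7e-94), -2.74 at Erg (4.5e-29), -2.72 at Tbx3 (4.42e-43) and -2.34 at Gja1 (1.6e-41). The Sfi1 region (chr11:3041347-3047409) was the member of lowest level per kb in single ChIP-Seq of Rosa H2B-FLAG mice, at 5.34 CPM per kb, and its mean was 42.8 CPM per kb in tChIP-Seq of Camk2a H2B-FLAG mice.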

How the results depend on the processing

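Counts in tChIP-Seq, between kinds and in the interaction stayed within 1.5 times under other tools, size factors, filters and thresholds. Single ChIP-Seq between lines did not: members higher and lower moved from 10 and 27 to 1 and 3 with the Wald test of DESeq2 (57 members without an adjusted p), 2 and 2 without its independent filtering, 2 and 1 after thinning to tChIP-Seq totals, and 16 and 70 at an adjusted p under 0.05. Leaving out 1 library gave 2 to 7 higher and 7 to 23 lower. The higher count fell by over 1.5 times without any single ChIP-Seq library of Camk2a H2B-FLAG mice or replicates 2 and 3 of Rosa H2B-FLAG, and the lower count likewise, to 9, 8 and 17 and to 16 and 7. Cnp and Dusp8 lost their calls with both DESeq2 tests, Adcyap1, Pde4d and Olig2 in the one that gave them an adjusted p, and Adcyap1 in every fit with a library left out. At the lower totals of tChIP-Seq, most of these calls were not detectable. Elsewhere, leaving out 1 library gave ranges of 349 to 363 and 96 to 104 (lines in tChIP-Seq, higher and lower), 54 to 65 and 465 to 486 (kinds in Rosa H2B-FLAG), 229 to 241 and 216 to 228 (kinds in Camk2a H2B-FLAG) and 354 to 371 and 74 to 80 (interaction). Shares ranged over 1.72 to 1.77, -0.05 to -0.01, -1.7 to -1.66, 0.08 to 0.13 and 1.75 to 1.8 percentage points.

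Changing the width cut changes how many members there are. At 5000 bp (424 members), 238 and 54 were higher and lower between lines in tChIP-Seq, 35 and 321 between kinds in Rosa H2B-FLAG, 159 and 148 in Camk2a H2B-FLAG, and 238 and 39 in the interaction. At 4000 bp (1079 members), the lower count between lines was 161, the higher count between kinds in Rosa H2B-FLAG was 103, the lower count in Camk2a H2B-FLAG was 369 and the lower count in the interaction was 131. Share differences at 4000 and 5000 bp were 2.23 and 1.31 (lines, tChIP-Seq), -2.2 and -1.24 (kinds, Rosa H2B-FLAG) and 2.31 and 1.32 (interaction), and -0.09 at 4000 bp for lines in single ChIP-Seq. As shares of counts in TSS regions they were 1.93 (lines, tChIP-Seq), 0.04 (lines, single ChIP-Seq), 0.25 (kinds, Camk2a H2B-FLAG) and 1.89 (interaction).

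With a replicate block, members higher and lower were 372 and 103 in tChIP-Seq between lines, 10 and 38 in single ChIP-Seq, 65 and 495 and 248 and 233 between kinds, and 376 and 78 in the interaction. Within a line, deviations of same-numbered libraries of the 2 kinds correlated at 0.00197 to 0.0547, and those of different numbers at -0.0341 to 0.0143. These small values cannot decide whether the numbers pair. The replicate block moved no count by over 1.5 times. Leaving out the Sfi1 region, chosen after seeing the data, gave 374 and 104 between lines in tChIP-Seq and a share difference of 1.77. The share interaction of 1.77 had an adjusted p of 0.05 over libraries and of 0.25 with lysates as the unit, also added later (exact permutation tests). Neither is under the threshold of 0.01. For the named members, 39 of 1175 fits under alternatives lost the call, all but 2 of them in single ChIP-Seq between lines, and none changed sign.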

Other observations

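Broad regions named by noncoding transcripts had values of both signs. In tChIP-Seq of Camk2a H2B-FLAG against Rosa H2B-FLAG mice, the lincRNA region Gm16600 was lower by -1.96 (adjusted p = 8.81e-27) and Sox2ot by -1.84 (adjusted p = 3.61e-17), while A330023F24Rik was higher by 0.32 (adjusted p = 0.000198). Among microRNA regions, Mir125b-2 was higher by 0.51 (adjusted p = 7.4e-06). The region of Malat1 was lower by -0.21 (adjusted p = 6.49e-05), and that of Neat1, also on chromosome 19, by -2.28 (adjusted p = 1.26e-31).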
